A study of Mus musculus with 22 samples.

Results

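Cirbp and Rbm3, 2 of the 34584 mouse genes listed in count tables of thymus, cerebrum and cerebellum, were followed library by library in mice that carry the Tol transgene and in their wild-type littermates. They were selected on their values by organ and genotype, so their levels, their differences between Tol and WT mice and their relation to each other are given below as a description, without p-values. The study built a C57BL/6 mouse meant to be tolerant to several reporter proteins. Tol is a scrambled reading frame of reporter gene fragments that stands under the ubiquitous CAG promoter 3′ of Col1a1, Tol mice are heterozygous for it, and WT mice are littermates without it. Thymus and cerebrum each had 4 libraries per genotype, while the cerebellum had 2 from Tol and 4 from WT mice, each from an untreated frozen tissue, and the labels used here give no time of collection and no age for a library.

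Cirbp and Rbm3 encode small proteins with an RNA recognition motif followed by a glycine-rich tail. Their mRNA and protein are known to rise when cells are mildly cooled and to fall when cells are warmed, the opposite of the heat shock chaperones, and Cirbp RNA is known to follow the daily rhythm of body temperature. In neurons Rbm3 is known for its part in the maintenance of synapses during cooling. Cirbp binds and stabilises mRNAs such as that of the clock factor Clock, and, when released from cells, acts on the innate immune receptor Tlr4. Sp1 and Creb1 are transcription factors known to act on these genes.

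The 22 libraries held between 14543698 and 34776973 estimated counts, with a median of 21577753.5, and the deepest were thymus libraries Tol 1 and WT 4. The Tol transcript, which checks the genotype labels, had between 448 and 4628 counts in the Tol libraries and at most 2 in any WT library. Summed marker genes of thymocytes, forebrain neurons and cerebellar granule cells were highest in the organ they name. Cerebellum library Tol 2 stood apart with 119 CPM (counts scaled to a common library total) of granule cell markers, against 1436 to 3206 CPM in the other cerebella, and cerebellum library WT 2 held 4476 CPM of choroid plexus markers, where the lowest cerebellum held 14.6 CPM. In bulk tissue, fewer cells of a type and less RNA per cell cannot be told apart.

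Cirbp (ENSMUSG00000045193) lies on the plus strand of chromosome 10, from 80165985 to 80172786 in GRCm38, and Rbm3 (ENSMUSG00000031167) on the minus strand of chromosome X, from 8138975 to 8145880. The annotation gives Cirbp 7 transcripts, 2 of them protein-coding, with a longest of 1321 bp, and Rbm3 11 transcripts, 6 of them protein-coding, with a longest of 2792 bp. The coding sequences were identical at 327 of 450 aligned bases (72.7%). The most alike stretch of 60 bases is printed to show how far the genes can be told apart by reads. It covers coding positions 196 to 255 in both genes, spans a splice junction in each (chr10:80170108-80170246 on the plus strand and chrX:8143903-8144587 on the minus strand of GRCm38), and has 48 identical bases and 12 different ones, which are in capitals.
Cirbp: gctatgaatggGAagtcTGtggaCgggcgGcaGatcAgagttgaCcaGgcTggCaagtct
Rbm3: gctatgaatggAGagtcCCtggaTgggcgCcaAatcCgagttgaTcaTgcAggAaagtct
Even the longest run of bases shared by any transcript of Cirbp with any of Rbm3 was 11 bases long, and no other annotated transcript shared a run of 31 bases with Cirbp.

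Rbm3 differed in this respect, since 445 other annotated genes shared at least 1 run of 31 bases with it. Of these, 4 shared at least 50 such runs, and the rest at most 24. The 4 are processed copies of Rbm3 that lie elsewhere in the genome. The pseudogenes Rbm3-ps, Gm10156, Gm48583 and Gm13624 shared 85.5%, 76.4%, 100% and 34.7% of their own runs of 31 bases with Rbm3 transcripts. Gm48583 (chr13:60641790-60642009, plus strand of GRCm38) is 220 bp long, and its opening 60 bases, printed because reads from them cannot be placed, are the coding positions 240 to 299 of Rbm3 without a difference.
Gm48583 and Rbm3: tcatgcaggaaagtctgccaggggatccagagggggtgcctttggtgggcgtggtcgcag
Gm48583 had 621 to 2402 counts in thymus libraries, 91 to 280 in cerebrum and 174 to 491 in cerebellum, and Rbm3-ps had 103 to 762, 0 to 38 and 0 to 74. The 4 copies together held 14.1% to 18.3% of the sum of Rbm3 and its copies in thymus, 11.5% to 18.5% in cerebrum and 10.8% to 16.9% in cerebellum. The counts of Rbm3 are therefore uncertain by shares of this size, and values with the copies summed into Rbm3 are given beside the main ones. The annotated antisense gene Rbm3os overlaps Rbm3 on the other strand and was not analysed here.

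For Cirbp the RefSeq promoter table (GRCm38.p6) held 2 windows of 300 bases, and for Rbm3 none was used, so that 1 of the 2 genes was matched. The printed part of the first window, chr10:80167589-80167777 on the plus strand, ends just before the first annotated Cirbp exon that starts in the window. This stretch lies inside the annotated span of the gene, which starts farther upstream. It is printed because Cirbp is known for a mild cold response element, TCCCCGCC. This element and the GC box GGGCGG, to which Sp1 is known to bind, are in capitals, on either strand, so that CCGCCC marks a GC box on the minus strand.
Cirbp promoter: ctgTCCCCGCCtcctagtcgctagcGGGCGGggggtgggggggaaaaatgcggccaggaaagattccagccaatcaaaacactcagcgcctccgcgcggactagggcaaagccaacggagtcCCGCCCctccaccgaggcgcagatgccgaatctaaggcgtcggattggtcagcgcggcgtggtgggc
The element TCCCCGCC occurred 1 time, 186 bases before the exon, and 5.38% of the 32851 windows in the table held it on either strand. The GC box occurred 2 times, 164 and 67 bases before the exon, and 35.7% of windows held it. The letters GAANNTTC and TTCNNGAA, repeats of the heat shock element, were not in these bases and were in 7.86% and 8.52% of all windows. The letters TGACG of the cyclic AMP response element and the E-box CACGTG were not there either, and 20.8% and 7.15% of windows held them. These shares are for 300 bases, while the printed stretch has 189. Over its 300 bases the first Cirbp window held TCCCCGCC 1 time and GGGCGG 3 times. The second window, which starts downstream of the first, held GGGCGG 4 times, TGACG 1 time and TCCCCGCC 0 times. The motifs were searched on both strands, and GGGCGG does not overlap TCCCCGCC in the printed bases.

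In WT mice, Rbm3 was far higher in thymus than in brain, while the ranges of Cirbp in the 3 organs overlapped with the main scaling. Levels were set per kilobase (kb) of the longest transcript after a TMM normalization (trimmed mean of M-values, a scaling by library composition) across the 22 libraries. Rbm3 stood at 86.9 ± 14.3 CPM per kb (SD, n = 4) in WT thymus, 30.9 ± 7.63 (SD, n = 4) in WT cerebellum and 19.8 ± 3.25 (SD, n = 4) in WT cerebrum. Every WT thymus was above every WT cerebrum and cerebellum for Rbm3, as was so for 41.7% and 39.5% of 18946 genes in the same direction. The ratio of thymus to cerebrum was 4.38, and the ratio of thymus to cerebellum was 2.81. WT cerebellum and WT cerebrum overlapped, with 20.8 to 37.4 against 15.4 to 23.1 CPM per kb, whereas 21.2% of genes were higher in cerebellum without overlap.

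Cirbp stood at 35.5 ± 7.76 CPM per kb (SD, n = 4) in WT cerebellum, 30.5 ± 5.64 (SD, n = 4) in WT thymus and 28.9 ± 3.38 (SD, n = 4) in WT cerebrum. None of these neighbours in the order differed beyond their spread, since the ranges of 26.6 to 44.5, 26.4 to 38.8 and 25.1 to 32.3 CPM per kb overlapped. The order and the separation of the organs depended on the scaling. With library totals in place of TMM the ratio of thymus to cerebrum was 1.43 instead of 1.06 for Cirbp and 5.95 for Rbm3. That of thymus to cerebellum was 1.06 instead of 0.861 for Cirbp. Cirbp in WT thymus, at 30.3 to 45.9 CPM per kb, was then above every WT cerebrum, at 22.4 to 28.3. With TMM, 41.7% of genes were higher in WT thymus than in WT cerebrum without overlap. Per kb, Rbm3 was at 2.85 times the level of Cirbp in WT thymus, 0.687 times in WT cerebrum and 0.873 times in WT cerebellum. With the median length of the coding transcripts these ratios were 4.36, 1.05 and 1.34, so which gene was higher in the brain was not settled by these counts.

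**Figure D1:**
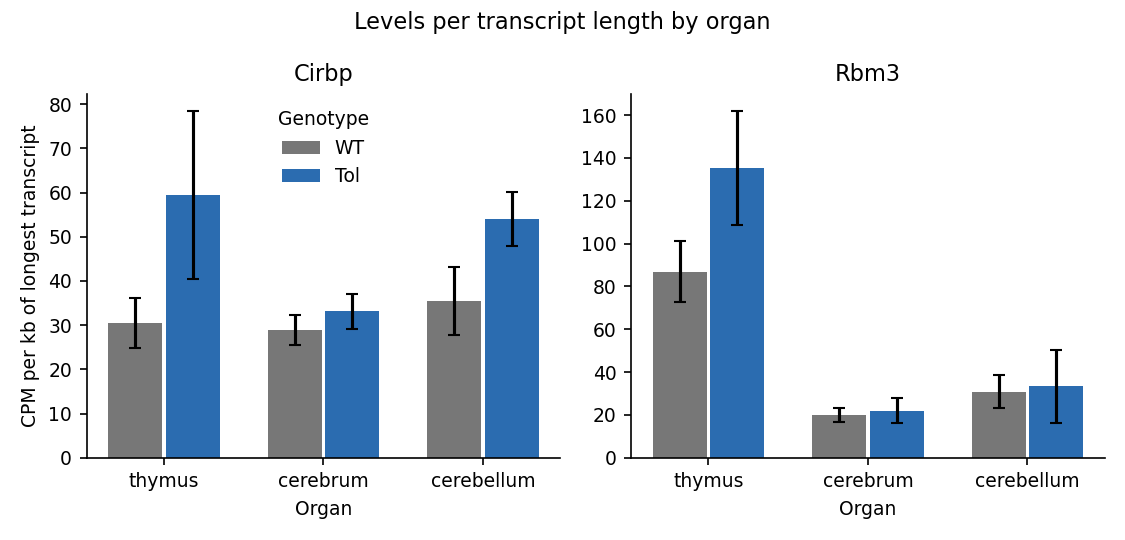
Mean level of Cirbp and of Rbm3 in CPM per kb of the longest transcript by organ, with WT in grey and Tol in blue, on axes that start at 0 and differ between the genes. Error bars are the SD over 4 libraries, or 2 for Tol cerebellum. Rbm3 in WT thymus stands at 86.9 against 19.8 in WT cerebrum, while Cirbp in WT mice lies between 28.9 and 35.5.

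In the thymus, Cirbp and Rbm3 were both higher in Tol than in WT mice. Values in the comparisons of Tol with WT mice are in CPM with TMM within the organ. Cirbp stood at 71.8, 125.4, 63.2 and 111.3 CPM in Tol thymi 1 to 4 and at 43.1, 45.6, 61.2 and 40.6 CPM in WT thymi 1 to 4. The groups did not overlap, as was the case in this direction for 5.81% of 16248 genes, but the lowest Tol and the highest WT thymus were only 63.2 and 61.2 CPM. Cirbp averaged 92.9 ± 30.1 CPM (SD, n = 4) in Tol thymus against 47.6 ± 9.30 (SD, n = 4) in WT. Its log2 fold change was 0.96 (SE 0.21), which 0.326% of genes exceeded.

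Rbm3 stood at 412.6, 533.2, 335.8 and 504.1 CPM in Tol thymi 1 to 4 and at 299.5, 242.8, 352.4 and 252.0 CPM in WT thymi 1 to 4. Tol 3 fell below WT 3, so the groups overlapped, and the other Tol thymi were above every WT thymus. Rbm3 averaged 446 ± 89.9 CPM (SD, n = 4) in Tol thymus against 287 ± 50.4 (SD, n = 4) in WT. Its log2 fold change was 0.64 (SE 0.15), which 1.19% of genes exceeded. With the copies summed into Rbm3 the log2 fold change was 0.64 (SE 0.16). Tol thymi 2 and 4 were the highest for both genes, and Tol thymus 3 was the lowest of its group and WT thymus 3 the highest of its group for both.

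**Figure D2:**
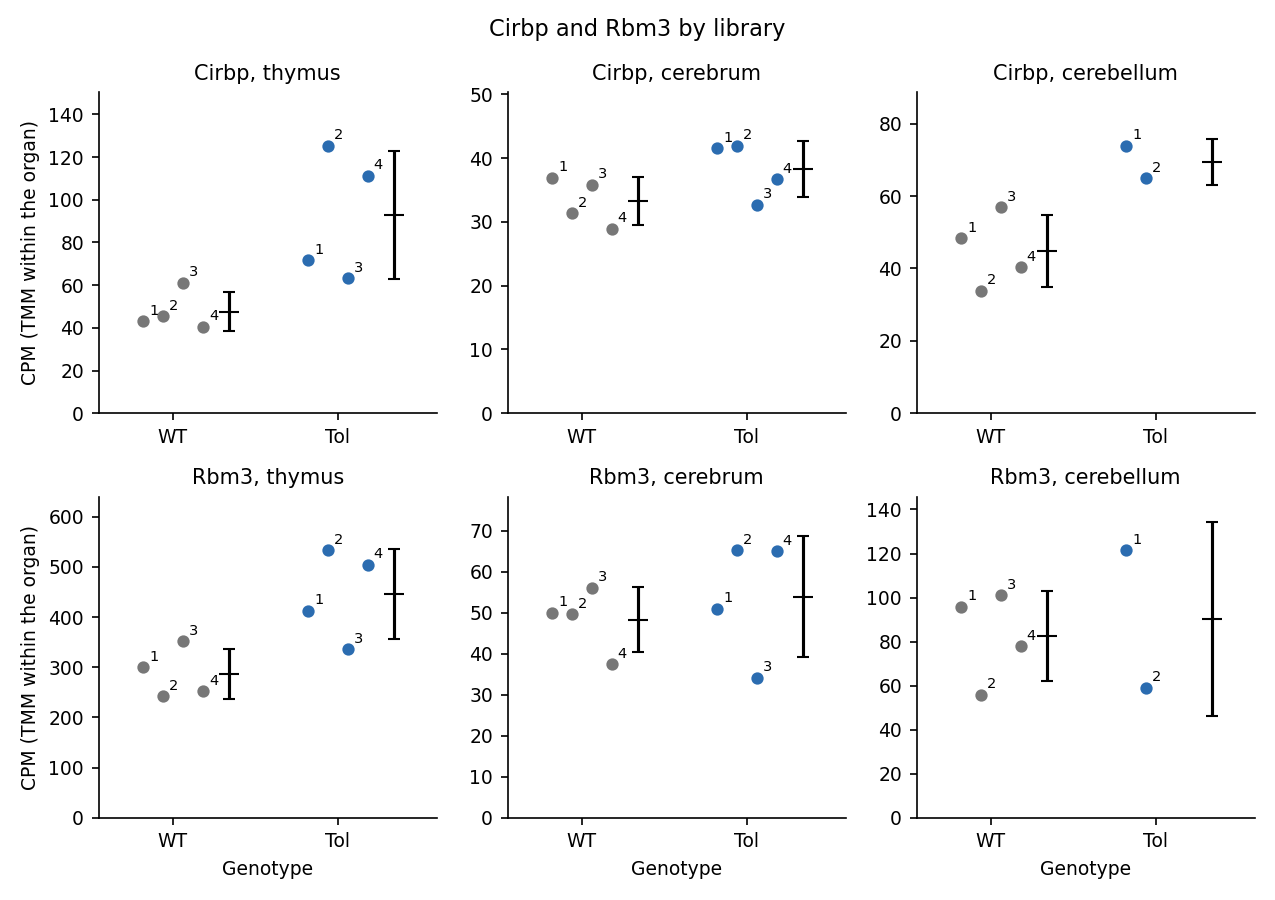
CPM of Cirbp (top) and Rbm3 (bottom) in every library by organ, with WT in grey, Tol in blue and the replicate number beside each point. Black bars give the mean and SD of the group. Cirbp groups do not overlap in thymus and cerebellum, and Rbm3 groups overlap in all 3 organs.

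Several measures of the thymus libraries were set beside these values. The log2 fold changes of 16199 genes in thymus fell with transcript length (Spearman's rho across genes −0.384, genes not being independent replicates), and with the trends with length and GC content removed those of Cirbp and Rbm3 were 0.86 (SE 0.18) and 0.59 (SE 0.14). Without Tol 1, the deepest thymus library, they were 1.08 (SE 0.21) and 0.68 (SE 0.16). The summed markers of thymocytes (8 genes) ranged from 8352 to 10622 CPM in Tol and from 10355 to 11700 CPM in WT thymus. Those of thymic epithelium (6 genes) ranged from 754 to 863 and from 731 to 772 CPM. Those of B cells (5 genes) ranged from 61.3 to 69.8 and from 60.1 to 87.7 CPM, and those of adipocytes (5 genes) from 24.6 to 103 and from 40.8 to 114 CPM. Those of blood (5 genes) ranged from 182 to 262 and from 118 to 281 CPM. All 5 lists overlapped between genotypes, none of their genes was under 3 counts in every thymus, and their part in the values of Cirbp and Rbm3 was not tested.

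In the cerebrum, neither gene separated the genotypes. Cirbp stood at 41.5, 42.0, 32.7 and 36.7 CPM in Tol cerebra 1 to 4 and at 36.9, 31.4, 35.8 and 28.9 CPM in WT cerebra 1 to 4, with a log2 fold change of 0.20 (SE 0.11). Rbm3 stood at 51.0, 65.2, 34.2 and 65.1 CPM in Tol and at 50.02, 49.7, 56.1 and 37.4 CPM in WT cerebra, with a log2 fold change of 0.16 (SE 0.20). Both pairs of groups overlapped, where 3.38% of 15596 genes had every Tol above every WT cerebrum. Tol cerebrum 3 was the lowest Tol library for both genes, and without it the log2 fold change of Rbm3 was 0.32 (SE 0.15), against 0.05 without Tol 2.

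In the cerebellum, Cirbp was higher in both Tol libraries, and Rbm3 in only 1 of them. Cirbp stood at 73.9 and 64.9 CPM in Tol cerebella 1 and 2 and at 48.3, 33.9, 56.9 and 40.3 CPM in WT cerebella 1 to 4. These groups did not overlap, as for 6.19% of 16662 genes in this direction, and the log2 fold change was 0.63 (SE 0.21). Rbm3 stood at 121.5 and 59.2 CPM in Tol and at 95.9, 55.9, 101.0 and 77.9 CPM in WT cerebella. The log2 fold change of Rbm3 was 0.13 (SE 0.35), and its sign rested on single libraries, being −0.49 without Tol 1, 0.55 without Tol 2 and −0.04 without WT 2. Without Tol 2, the library with few granule cell markers, the log2 fold change of Cirbp was 0.72 (SE 0.27). It was 0.50 (SE 0.17) without WT 2, the library with the most choroid plexus markers.

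Set side by side, the log2 fold changes of Cirbp were 0.96, 0.20 and 0.63 in thymus, cerebrum and cerebellum, and those of Rbm3 were 0.64, 0.16 and 0.13. The difference between thymus and cerebrum was 0.76 (SE 0.23) for Cirbp and 0.48 (SE 0.25) for Rbm3 on the log2 scale. It was not tested, since the genes were chosen by this pattern. These SEs take the organs as independent, although libraries of different organs may come from the same mice. The ratio of Rbm3 to Cirbp counts, which no scaling of a library can change, was 4.25 to 5.75 in Tol and 5.32 to 6.94 in WT thymus. It was 1.04 to 1.77 in the 8 cerebra and 0.911 to 1.98 in the 6 cerebella.

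Across libraries of the same group, Cirbp and Rbm3 went up and down together. Each library's log2(CPM + 1), with TMM across the 22 libraries, was taken as a deviation from the mean of its organ and genotype. This was done for the 20 libraries of the 5 groups of 4. Pearson's r of Cirbp with Rbm3 was 0.784 (Spearman's rho 0.815, n = 20), and 0.760 without thymus libraries Tol 2 and Tol 3, the ones farthest from the median of Cirbp. The deviations were on the same side of 0 in 16 of the 20 libraries. Among 12626 other genes expressed in all 3 organs, Rbm3 ranked 20 by its r with Cirbp, and the median r of these genes with Cirbp was −0.002. With the copies summed into Rbm3 the value was 0.782, and with the trends with GC content and length removed from each library it was 0.827. In thymus alone r was 0.895 (n = 8), and in cerebrum alone it was 0.706 (n = 8) but −0.065 without Tol 3 and WT 4, so that the cerebrum value rested on those libraries. Points of 1 library share its depth and composition. The study describes 4 mice of each genotype, so libraries of different organs may come from 1 mouse. The 20 libraries may therefore not be independent. The deviations of Cirbp had r = −0.246 with the log2 total count and −0.457 with the library's slope on transcript length (rho −0.245 and −0.313), and those of Rbm3 −0.230 and −0.239 (rho −0.245 and −0.147), and the part of these measures was not tested.

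The genes most like Cirbp over the 20 libraries were H1f0, a linker histone (r = 0.874), the uncharacterised 1110004F10Rik (0.852), Thoc3, a subunit of the THO complex of mRNA export (0.844), Parn, a poly(A)-specific ribonuclease (0.835), and Dut, the dUTPase (0.834). With all 22 libraries the r of H1f0 was 0.603. The gene least like Cirbp was Hsph1, the heat shock chaperone Hsp110 (r = −0.864, Spearman's rho −0.859), followed by the adhesion protein gene Tns3 (−0.857). Hsph1 and Cirbp were on opposite sides of their group means in 17 of the 20 libraries, among them all 8 cerebra. Their r was −0.872 in thymus (n = 8), −0.950 in cerebrum (n = 8), −0.796 without thymus Tol 2 and Tol 3, −0.782 with all 22 libraries and −0.847 with the trends with GC content and length removed. The r of Tns3 was −0.642 under that removal. In cerebrum the deviations of Hsph1 were small, between −0.06 and 0.06 on the log2 scale.

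**Figure D3:**
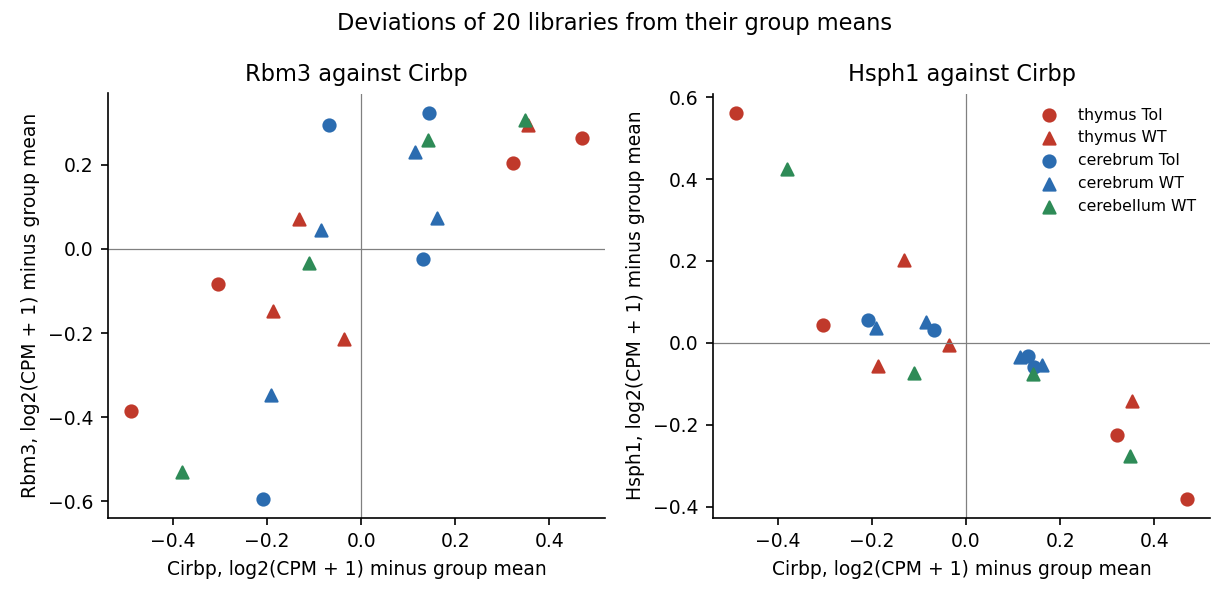
Deviation of each of 20 libraries from its group mean in log2(CPM + 1), with Cirbp on the horizontal axes and Rbm3 (left) or Hsph1 (right) on the vertical axes. Colours give the organ, circles Tol and triangles WT. Libraries high for Cirbp are high for Rbm3 (r = 0.784) and low for Hsph1 (r = −0.864).

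The gene most like Rbm3 was its own copy Gm48583 (r = 0.930), whose counts cannot be told apart from those of Rbm3. Next came Fen1, the flap endonuclease of DNA replication and repair (0.915), Gsr, glutathione reductase (0.83), the methyltransferase gene N6amt1 (0.827) and Fam76b (0.807). Fen1 had r = 0.911 in thymus, 0.905 in cerebrum and 0.937 with all 22 libraries, while N6amt1 had 0.591 with all 22. The least like Rbm3 were Gpr137b (−0.875, and −0.581 with all 22 libraries) and Dnase1, a deoxyribonuclease (−0.874). Hsph1 had r = −0.661 with Rbm3. Of the 22 listed heat shock genes, 17 had a negative r with Cirbp (median −0.31) and 19 with Rbm3 (median −0.30), beside medians of −0.002 and 0.004 over all genes. In cerebrum alone the medians of the heat shock genes were −0.03 and −0.09. The 6 regulators also had negative medians over the 20 libraries, −0.34 with Cirbp (6 of 6 negative) and −0.31 with Rbm3 (4 of 6 negative). With all 22 libraries these medians were −0.32 (5 of 6 negative) and −0.07 (3 of 6 negative). Of 17 other glycine-rich or closely related RNA-binding protein genes, 13 had a positive r with each of Cirbp (median 0.38) and Rbm3 (median 0.45). In cerebrum alone 9 of the 17 had a positive r with Cirbp (median 0.01) and 10 with Rbm3 (median 0.09).

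In libraries that carry the same genotype and number in thymus and cerebrum, Rbm3 deviated alike in both organs, a pattern noticed in the data. Whether libraries of 1 number come from 1 mouse is not stated in the labels. The r of Rbm3 between the organs over the 8 numbers was 0.883 (rho 0.857), 0.794 without the 2 numbers farthest from the median in thymus, and the signs were the same in 7 of 8. Of 12627 genes, 0.467% had a higher r, and the median was 0.040. Within the genotypes, with only 4 numbers each and no test of their difference, r was 0.988 in Tol, with 0.594% of genes higher, and 0.675 in WT, with 17.4% of genes higher. For Cirbp r was 0.441 (rho 0.452) and 0.102 without 2 numbers. Between thymus and cerebellum the r of Rbm3 over 6 numbers was 0.089, between cerebrum and cerebellum it was −0.219, and the values of Cirbp there were 0.129 and 0.700. These 6 numbers include 2 of Tol, which have only 1 independent deviation in an organ. Over the 4 WT numbers alone the values of Rbm3 were 0.854 (8.83% of genes higher) and 0.273 (44.0% higher). Those of Cirbp were 0.601 (23.7% higher) and 0.739 (15.7% higher).

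**Figure D4:**
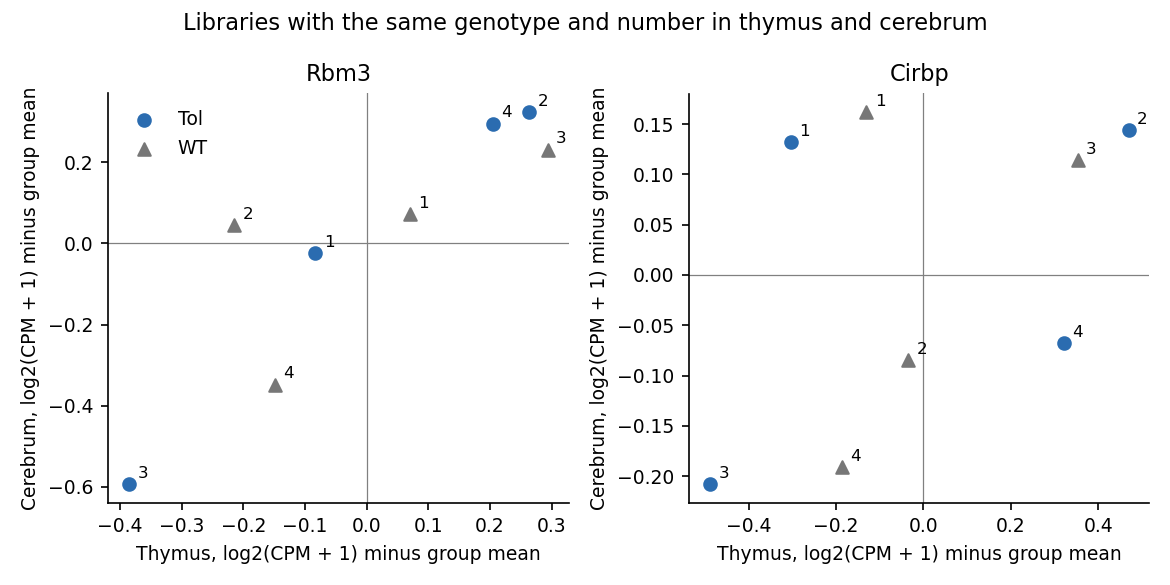
Deviation from the group mean in log2(CPM + 1) in thymus (horizontal axes) and cerebrum (vertical axes) for libraries with the same genotype and number, for Rbm3 (left) and Cirbp (right), with Tol as blue circles and WT as grey triangles. For Rbm3 7 of the 8 numbers lie on the same side in both organs (r = 0.883), and for Cirbp r is 0.441.

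The genes known to act on Cirbp or Rbm3, or to be acted on by them, were tested by edgeR's quasi-likelihood test with Benjamini-Hochberg adjustment over all genes. In thymus 9 genes (0.0554% of 16248) passed an adjusted p of 0.05 as higher in Tol and 7 (0.0431%) as lower, Tol itself left out, and DESeq2 called 1296 genes (7.98%) in the same libraries, so that the counts of calls depend on the tool. At an unadjusted p under 0.05 edgeR had 3965 of the 16248 genes (24.4%), against which the unadjusted counts of the lists in thymus are to be read. Among 6 regulators edgeR called 0 (3 at an unadjusted p under 0.05), and DESeq2 called Creb1 and Ntrk2 lower. Creb1 was at 245 CPM in Tol and 300.3 CPM in WT thymus (log2 fold change −0.29, SE 0.08, adjusted p = 0.0927), without overlap, and Sp1 was at 269 and 313 CPM (−0.22, SE 0.08, adjusted p = 0.143). Ntrk2, the receptor of BDNF, had −0.80 (SE 0.27, adjusted p = 0.1204) at no more than 6.58 CPM in any library. Its downstream enzyme gene Plcg1 had −0.08, the splicing regulator gene Hnrnph1 0.02, and the ion channel gene Trpv4 0.45 on the log2 scale, with adjusted p = 0.476, 0.895 and 0.214.

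Of the 3 receptor genes for extracellular Cirbp, 2 were tested in thymus, and edgeR called 0 of them (1 at an unadjusted p under 0.05, 0 by DESeq2). Tlr4 was at 8.56 CPM in Tol and 10.7 CPM in WT thymus without overlap (log2 fold change −0.33, SE 0.10, adjusted p = 0.113). Its partner gene Ly96 had 0.27 (SE 0.16, adjusted p = 0.323), and Trem1 was too low to be tested, at no more than 0.557 CPM in thymus. Of 4 target mRNAs edgeR called 0 in thymus (3 at an unadjusted p under 0.05), and DESeq2 called 1, Txn1. Txn1, thioredoxin, was at 268 CPM in Tol and 209 CPM in WT thymus (log2 fold change 0.35, SE 0.10, adjusted p = 0.0942). Rpa2, a subunit of the single-stranded DNA binding protein RPA, had 0.32 (SE 0.13, adjusted p = 0.159), Clock −0.27 (SE 0.08, adjusted p = 0.113) and Rtn3, a reticulon known to be bound by Rbm3, 0.07 (SE 0.06, adjusted p = 0.475).

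The heat shock genes, which respond to temperature in the opposite direction, held the only listed gene that edgeR called. Hsph1 fell in Tol thymus, from 163.2, 139.4, 129.2 and 133.5 CPM in WT thymi 1 to 4 to 60.4, 45.4, 87.3 and 49.9 CPM in Tol thymi 1 to 4. The groups did not overlap, and the Tol thymi with the most Cirbp, 2 and 4, had the least Hsph1. The log2 fold change was −1.22 (SE 0.17, adjusted p = 0.0303, edgeR). The call was kept when Tol 1 or Tol 3 was left out and was lost when any of the other 6 libraries was, with adjusted p from 0.00104 to 0.148 over the 8 fits. In all, 20 of the 22 heat shock genes had negative log2 fold changes, with a median of −0.23 beside 0.007 over all genes. By edgeR 15 of the 22 had an unadjusted p under 0.05, beside 24.4% of all genes. In 12 of the 22 every Tol was below every WT thymus, as in 5.95% of genes. The list was chosen with earlier results of these data known, so these counts are a description. DESeq2 called 9 of the heat shock genes lower, among them Hspa8 (log2 fold change −0.57, edgeR adjusted p = 0.0640) and Hspa1b (−0.63, 0.0641). Hspe1 and Dnajb1 had positive log2 fold changes of 0.26 and 0.10 (edgeR adjusted p = 0.197 and 0.569).

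**Figure D5:**
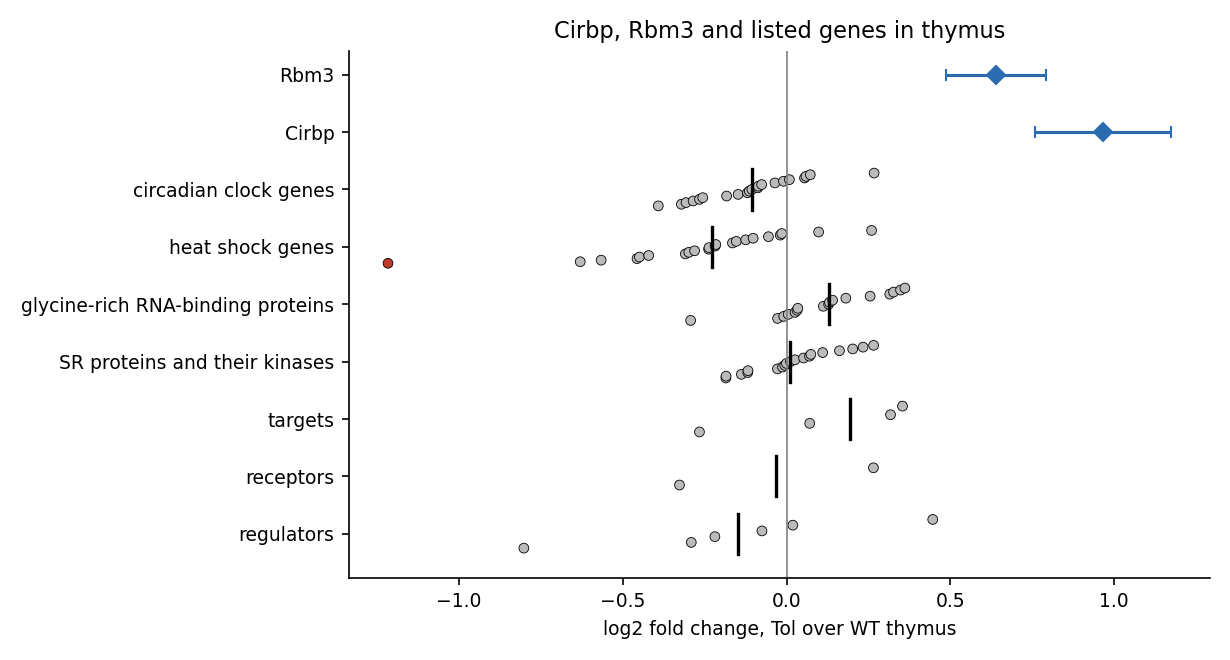
Log2 fold changes of Tol over WT thymus for the listed genes, 1 point each, with the median of each list as a black line and the gene with an adjusted p under 0.05 in red. Blue diamonds give Cirbp (0.96) and Rbm3 (0.64) with their SE. Hsph1 lies farthest to the left at −1.22, and the median of the heat shock genes is −0.23.

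None of the other listed RNA-binding protein genes was called by edgeR in thymus. Of the 17 glycine-rich or related ones, 14 had positive log2 fold changes with a median of 0.13, and edgeR called 0 (7 at an unadjusted p under 0.05, 6 by DESeq2). The lowest p-values were those of Hnrnpdl, an hnRNP D-like protein (0.36, SE 0.08, adjusted p = 0.0794), and Ewsr1, of the FET family (0.32, SE 0.07, adjusted p = 0.0805). Of 19 SR splicing factors and the Clk and Srpk kinases that phosphorylate them, 10 had positive log2 fold changes with a median of 0.01, and edgeR called 0 (5 at an unadjusted p under 0.05, a share near that of all genes, and 4 by DESeq2). Srsf3 had 0.27 (SE 0.07, adjusted p = 0.0862) and the kinase gene Srpk2 −0.19 (SE 0.05, adjusted p = 0.0885). Among 21 clock genes edgeR called 0 in thymus (5 at an unadjusted p under 0.05, a share near that of all genes, and 1 by DESeq2). Per1, a repressor of the clock that also responds acutely to hormones, was at 35.1 CPM in Tol and 46.2 CPM in WT thymus (log2 fold change −0.39, SE 0.07, adjusted p = 0.0548), and Rora had −0.26 (SE 0.07, adjusted p = 0.0956).

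In cerebrum edgeR called 0.0% of 15596 genes higher and 0.0% lower (1506 or 9.66% at an unadjusted p under 0.05, 187 or 1.2% called by DESeq2), and none of the listed genes. At an unadjusted p under 0.05 there were 4 clock genes, 3 heat shock genes, 2 SR genes, 1 glycine-rich gene and 0 regulators, receptors and targets. The clock genes were the exception under DESeq2, which called Per1, Per2 and Bhlhe40 lower. By edgeR, Per2 had a log2 fold change of −0.77 (SE 0.12, adjusted p = 0.143), Bhlhe40 −0.85 (SE 0.14, adjusted p = 0.157) and Per1 −1.40 (SE 0.27, adjusted p = 0.187), and 4 of the 21 clock genes had every Tol below every WT cerebrum, beside 3.12% of all genes. Hsph1 had −0.07 (SE 0.06, adjusted p = 0.764), and the heat shock genes with the lowest p-values were Dnajb1 (−0.33, adjusted p = 0.396) and Hspe1 (−0.17, adjusted p = 0.481). In the other lists these were Srsf7 (−0.27, adjusted p = 0.282), Srsf3 (−0.18, adjusted p = 0.406), Hnrnpdl (0.17, adjusted p = 0.451) and G3bp1 (−0.12, adjusted p = 0.519). The tested regulators, receptors and targets had log2 fold changes from −0.19 (Tlr4) to 0.63 (Ly96), with adjusted p = 0.832 and 0.648.

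In cerebellum edgeR called 0.0% of 16662 genes higher and 0.0% lower (527 or 3.16% at an unadjusted p under 0.05, 9 or 0.054% called by DESeq2), and none of the listed genes, with 2 Tol libraries that limit what can be detected. At an unadjusted p under 0.05 there were 4 SR genes, 3 clock genes, 1 heat shock gene and 0 of the rest, and DESeq2 called Per1. By edgeR, Per1 had a log2 fold change of −0.87 (SE 0.12, adjusted p = 0.957) and Dbp 0.53 (SE 0.14, adjusted p = 0.957). Of the 19 SR genes 17 had negative log2 fold changes and 5 had every Tol below every WT cerebellum, beside 4.59% of all genes, with Tra2a at −0.44 and Srsf12 at 0.63 (adjusted p = 0.957 for each). Bag3 had −0.69, Hspa1b −0.34, Hnrnpd 0.22 and G3bp2 0.29 on the log2 scale, each with an adjusted p of 0.957. Hsph1 had 0.06 (SE 0.31, adjusted p = 0.982). The tested regulators, receptors and targets had log2 fold changes from −2.05 (Trpv4, SE 1.30) to 0.38 (Ntrk2, SE 0.28), with adjusted p = 0.957 for each, and Trpv4 reached 19.3 CPM in the WT group.

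None of the genes beside Cirbp and Rbm3 on their chromosomes was called by edgeR in any organ. Around Cirbp, Midn and Atp5d on 1 side and 1600002K03Rik and Efna2 on the other had log2 fold changes of 0.06, 0.21, 0.05 and −0.30 in thymus (adjusted p = 0.611, 0.207, 0.890 and 0.486). Around Rbm3, Wdr13, Was, Tbc1d25 and Ebp had −0.09, −0.08, −0.14 and 0.14 (adjusted p = 0.460, 0.376, 0.325 and 0.349). In cerebrum Midn had −0.83 (SE 0.21, adjusted p = 0.269), and in cerebellum Efna2 had 0.72 (SE 0.25, adjusted p = 0.957).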

How the data were processed

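Per the labels and the study's methods, RNA of frozen thymus, cerebrum and cerebellum was sequenced from stranded poly(A) libraries, and the authors estimated counts per transcript with Salmon 0.14.1 on GRCm38 with Tol added and used edgeR 3.9. The deposited values are estimated counts (expected counts) per gene, stored as whole numbers without normalization, so no rounding was needed. 0 columns were left unused. The 31 pairs of libraries of a group differed by more than sampling noise (lowest chi-square over its degrees of freedom, 5.28). The study describes 4 mice of each genotype, and 2 Tol cerebellum libraries were used here.

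From the deposited counts, CPM, log2 fold changes and tests were computed in R 4.3.3 with edgeR 4.0.16 (filterByExpr, TMM, quasi-likelihood F test, Benjamini-Hochberg over all genes, threshold 0.05) and tested on simulated data. The SE of an edgeR log2 fold change was back-calculated, as the absolute log2 fold change over the square root of the F statistic. DESeq2 1.42.0 was an alternative. Cirbp, Rbm3 and the lists were chosen with earlier results of these data known. The genes named were Cirbp, Rbm3, all regulators, receptors and targets, per list and organ those called or else the 2 with the lowest p, the 5 most and 2 least correlated genes, and the 2 nearest tested genes on either side. Per1 in cerebrum, Hsph1 outside thymus, and Hspa8, Hspa1b, Hspe1 and Dnajb1 in thymus were named after their values were seen. Likeness used log2(CPM + 1), with TMM across the 22 libraries, of genes with a mean of at least 1 CPM in each organ. Trends with GC content and length were removed by splines with 4 degrees of freedom for the fold changes and by cubic polynomials for the correlations. Annotation was GENCODE vM21, with 34465 of the 34584 identifiers.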

Additional observations from a re-analysis of the deposited data

How the results depend on the processing

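The log2 fold changes of Cirbp in the 3 organs and of Rbm3 in thymus and cerebrum kept their sign under DESeq2, DESeq2's size factors in edgeR, no filter, at least 10 counts in every library, removal of the trends with GC content and length, the replicate block and each left-out library. Without each library in turn, Cirbp ranged from 0.79 to 1.12 in thymus, from 0.14 to 0.27 in cerebrum and from 0.50 to 0.76 in cerebellum, and Rbm3 from 0.55 to 0.76, from 0.05 to 0.32 and from −0.49 to 0.55. Leaving out cerebellum Tol 1 (−0.49) or WT 2 (−0.04) turned the sign of Rbm3 there.

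With the replicate block, Cirbp had 0.93, 0.20 and 0.77 and Rbm3 0.63, 0.13 and 0.21 in thymus, cerebrum and cerebellum, and 5 genes in place of 16 were called in thymus. The labels give no shared litter or day for a number, and the correlation of same-numbered Tol and WT deviations ranged from −0.177 to 0.0669 in thymus and from −0.415 to 0.495 in cerebrum, so the samples there were taken to share only a number. In cerebellum the values were −0.207 and 0.681, from 2 numbers, too few to tell. Only 1 of 8 thymus and 3 of 8 cerebrum libraries correlated best with their own number.

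The listed genes called in thymus, 1 by edgeR, were 23 by DESeq2, 5 without a filter, 5 with at least 10 counts and 0 to 26 without single libraries, with 26 without Tol 1. For all genes in thymus these counts were 1296, 130, 85 and 0 to 2978, with 2978 without Tol 1. In cerebrum, 0 genes were called by edgeR, 187 by DESeq2 (3 of them listed), 2 with the trends removed and 0 to 7 without single libraries. In cerebellum, 0 were called by edgeR, 9 by DESeq2 (1 of them listed) and 0 to 2 without single libraries. Hsph1 ranged from −1.44 to −1.10 without single thymus libraries. The cause of these differences was not tested.

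Scaling by library totals gave thymus to cerebrum ratios of 1.43 for Cirbp and 5.95 for Rbm3, and the median coding length gave Rbm3 to Cirbp ratios of 4.36, 1.05 and 1.34 in thymus, cerebrum and cerebellum. The r of Cirbp with Rbm3 was 0.895 in thymus alone. Summing Rbm3 with its copies was a setting chosen after seeing the data. The log2 fold changes of Rbm3 were then 0.64, 0.22 and 0.19 in thymus, cerebrum and cerebellum.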
